A study of Mus musculus with 2 samples.

Results

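The Kcnq1ot1 domain is a cluster of imprinted genes on distal mouse chromosome 7, and 10 of its genes were followed here among 47643 gene identifiers in each file. They are Ascl2, Tspan32, Cd81, Tssc4, Kcnq1, Kcnq1ot1, Cdkn1c, Slc22a18, Phlda2 and Nap1l4, in order along the chromosome, and they span 582 kb. All 10 were found by symbol with the GENCODE M21 annotation of the GRCm38 build, 9 as protein-coding genes and Kcnq1ot1 as an antisense noncoding RNA. They were chosen because Cdkn1c and Phlda2 were higher and Kcnq1ot1 was lower in replicate 2 than in replicate 1. The differences between the libraries are therefore given as a description, with no test, and support nothing. PolyA RNA came from mouse embryonic stem cells (line E14, strain background 129/Ola). The labels give their genotype as a double KO of AGO1 and AGO2, the genes of 2 Argonaute proteins, which bind microRNAs and repress their targets. Cells grew on gelatine in medium with 15% serum and 100 U/mL of LIF, the factor that keeps them self-renewing. Both libraries of the series, 1 group of n = 2, carry this genotype, so the data hold no measure of what the knockout changed. Whether separate cultures or clones were used is not said, and the spread between the libraries may be technical.

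In an imprinted domain, some genes are expressed mainly from the maternal chromosome and others from the paternal one. Here the paternal chromosome carries an unmethylated control region that serves as the promoter of Kcnq1ot1, a long unspliced RNA that starts within Kcnq1 and runs antisense to it. Its transcription silences neighbouring genes on the same chromosome, with Polycomb proteins and the histone methyltransferase G9a taking part, so that Cdkn1c, Phlda2, Slc22a18 and Kcnq1 are expressed mainly from the maternal chromosome in the embryo. Ascl2, Cd81, Tssc4, Tspan32 and Nap1l4 lie farther out and are imprinted mainly in the placenta. Counts per gene do not separate the parental chromosomes, so imprinting itself was not measured. A bulk count cannot tell apart more cells that express a gene and more RNA per cell.

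The libraries held 34798975 counts in replicate 1 and 29789560 in replicate 2. Levels are in CPM, in which counts are scaled to a common library total, with 95% exact Poisson intervals for counting error only, or in TPM, which is also scaled to exon length and is used for the order of levels between genes. Shares and ratios of counts between genes, where given, are not scaled to length. The floor, 3 counts, was 0.0862 CPM for replicate 1 and 0.101 CPM for replicate 2. The targeted genes did not check the labels, because gene counts do not show an edited exon. In replicates 1 and 2, Ago1 stood at 70.8 and 141 CPM and Ago2 at 124 and 129 CPM. Ago1 was thus 1.99-fold higher in replicate 2, a log2 ratio of 0.99 (95% counting interval 0.92 to 1.07). Ago2 had 0.06 (-0.01 to 0.12). Why Ago1 differed between the libraries was not tested. Over the 19078 genes with at least 10 counts the chi-square per gene between the libraries was 9.83, above the value near 1 that sampling noise gives, so they were kept as separate samples. Across those genes the ratio of replicate 2 over replicate 1 had a Spearman rho of -0.20 with GC content, a description over genes that share these libraries.

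The promoter of Kcnq1ot1 lies in the control region of the domain and that of Phlda2 belongs to a gene it silences, so both are shown. RefSeq windows (GRCm38.p6) from 250 bases before to 50 bases after the start matched 7 of the 10 genes, and Cdkn1c, Kcnq1 and Nap1l4 had no entry. The Kcnq1ot1 window is chr7:143296498-143296797 and the Phlda2 window chr7:143502475-143502774, both on the minus strand, printed 5′ to 3′ with CCAAT boxes, the element bound by NF-Y, in capitals.
Kcnq1ot1: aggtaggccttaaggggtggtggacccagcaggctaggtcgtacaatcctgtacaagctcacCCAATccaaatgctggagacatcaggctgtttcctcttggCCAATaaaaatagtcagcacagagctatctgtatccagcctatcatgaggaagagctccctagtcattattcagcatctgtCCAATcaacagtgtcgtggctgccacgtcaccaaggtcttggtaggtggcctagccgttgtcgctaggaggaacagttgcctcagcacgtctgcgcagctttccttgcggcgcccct
Phlda2: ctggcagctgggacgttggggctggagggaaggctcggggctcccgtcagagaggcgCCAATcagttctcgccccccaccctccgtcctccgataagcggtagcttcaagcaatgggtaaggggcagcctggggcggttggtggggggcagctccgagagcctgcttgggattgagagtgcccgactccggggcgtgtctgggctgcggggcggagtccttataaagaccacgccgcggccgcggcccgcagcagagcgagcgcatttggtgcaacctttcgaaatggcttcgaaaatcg

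The Kcnq1ot1 window held 3 CCAAT boxes, all on the strand of its own transcript, and the Phlda2 window held 1. With both strands searched, 37.4% of 32851 promoter windows held CCAAT at least once and 3.37% held it at least 3 times. Ascl2 also had 3 CCAAT boxes and Tssc4 had 1, whereas Tspan32, Cd81 and Slc22a18 had none. The Phlda2 window held GGGCGG, the Sp1 box, at 2 places and TATAAA once, motifs present in 35.7 and 13.6% of all windows. None of the 7 windows held TGCCGC, the letters bound by ZFP57 when methylated, which 11.6% of all windows held. CpG pairs numbered 26 in the Phlda2 window, 23 each in Ascl2, Cd81 and Tssc4, 9 in Kcnq1ot1 and 2 each in Tspan32 and Slc22a18, against a median of 7. A motif match describes letters in these windows and does not show binding or methylation.

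Levels in the domain ranged from abundant to barely detected. In TPM as mean ± SD of both libraries (n = 2), Cd81 led with 166 ± 4.79, followed by Nap1l4 with 126 ± 10.8 and Phlda2 with 121 ± 60.6. Tssc4 stood at 31.7 ± 0.886 TPM and Cdkn1c at 15.4 ± 11.1 TPM. Slc22a18 (9.36 ± 2.60 TPM), Ascl2 (6.95 ± 1.94 TPM), Tspan32 (1.67 ± 0.0619 TPM) and Kcnq1ot1 (0.562 ± 0.121 TPM) followed. Kcnq1 came last with 0.121 ± 0.116 TPM. Nap1l4 and Phlda2 did not differ beyond their spread, since Phlda2 lay below Nap1l4 in replicate 1 (77.9 against 118 TPM) and above it in replicate 2 (164 against 134 TPM). Cdkn1c, Slc22a18 and Ascl2 also changed places, with Ascl2 highest of these in replicate 1 (8.32 TPM) and Cdkn1c in replicate 2 (23.3 TPM). Among named genes with at least 10 counts, Cd81 lay at percentile 95.7 of TPM, Phlda2 at 93.6, Cdkn1c at 60.4, Kcnq1ot1 at 12.8 and Kcnq1 at 1.72. Of the 10 genes, 9 reached 1 CPM in both libraries, and 8 reached 1 TPM.

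**Figure D1:**
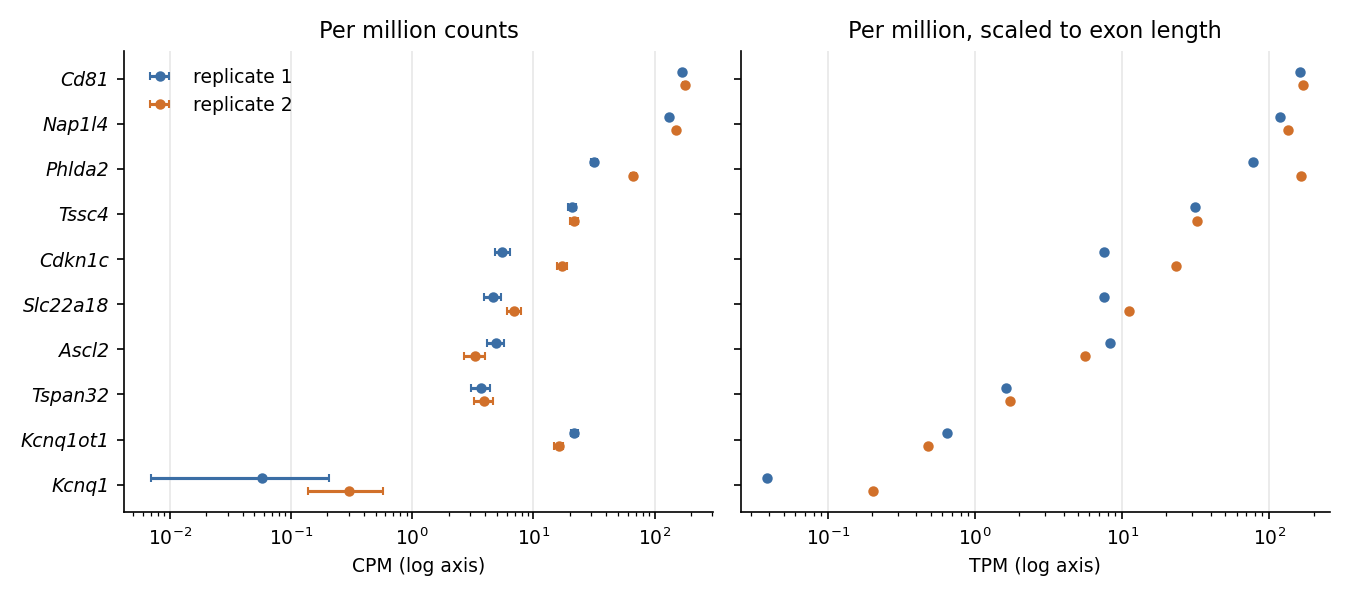
Level of each domain gene in each library, in CPM with 95% exact Poisson intervals (left) and in TPM (right), both on log axes and ordered by mean TPM. Kcnq1ot1 ranks 5 of 10 in CPM and 9 of 10 in TPM because its transcript is 93.1 kb long, and replicate 2 lies clearly to the right of replicate 1 for Cdkn1c and Phlda2.

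Kcnq1ot1, the noncoding RNA of the domain, was lower in replicate 2. Kcnq1ot1 (ENSMUSG00000101609; GRCm38 chromosome 7, 143203458 to 143296549, minus strand) is annotated as a single exon. It had 759 counts in replicate 1, or 21.8 CPM (95% interval 20.3 to 23.4), and 480 counts in replicate 2, or 16.1 CPM (14.7 to 17.6). These intervals did not overlap, and the log2 ratio of replicate 2 over replicate 1 was -0.44 (95% Clopper-Pearson interval -0.61 to -0.27), which is 1.36-fold lower. The gene overlaps exons of other genes on the opposite strand over 1.20% of its length, among them 121 bases of Kcnq1. Of its 50-base stretches, 1.71% recur in other genes on either strand, these overlapping genes included. The strand setting of the counting is not given in the sources used here, so reads from overlapping opposite strands may not have been told apart.

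Cdkn1c, which encodes the cyclin-dependent kinase inhibitor p57Kip2, showed the largest difference among the 9 domain genes with at least 100 counts. Cdkn1c (ENSMUSG00000037664; 143458339 to 143461050, minus strand) had 193 counts in replicate 1, or 5.55 CPM (95% interval 4.79 to 6.39), and 514 in replicate 2, or 17.3 CPM (15.8 to 18.8). The library labelled replicate 2 was higher by a log2 ratio of 1.63 (interval 1.39 to 1.88), or 3.10-fold. On the opposite strand the annotated antisense gene Gm44732 covers 30.7% of the Cdkn1c exons. Of the 50-base stretches of Cdkn1c, 24.9% recur in other genes on either strand, in a search that included this overlapping gene. Gm44732 itself had 0 and 2 counts, both under the floor.

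Phlda2, which encodes a small pleckstrin-homology domain protein that limits growth of the placenta, had a higher TPM in each library than Cdkn1c, Slc22a18 and Kcnq1, the others named above as maternally expressed in the embryo. Phlda2 (ENSMUSG00000010760; 143501545 to 143503150, minus strand) had 1100 counts in replicate 1, or 31.6 CPM (29.8 to 33.5), and 1987 in replicate 2, or 66.7 CPM (63.8 to 69.7). Its log2 ratio was 1.07 (0.97 to 1.18), or 2.11-fold higher in replicate 2. No exon of Phlda2 overlaps another gene and no 50-base stretch recurs in one. Slc22a18 (ENSMUSG00000000154; 143473736 to 143499334, plus strand), a gene of the organic cation transporter family, lies between Cdkn1c and Phlda2. It had 161 counts in replicate 1, or 4.63 CPM (3.94 to 5.40), and 206 in replicate 2, or 6.92 CPM (6.0 to 7.93). Replicate 2 was higher by a log2 ratio of 0.58 (0.27 to 0.88), or 1.49-fold. These 3 genes were thus higher in replicate 2, with counting intervals that did not overlap between the libraries. Cdkn1c and Phlda2 were chosen for being higher, so nothing is read from this. The intervals of Kcnq1ot1, Ascl2 and Nap1l4 did not overlap either, and the share of all genes without overlap was not counted.

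Kcnq1 (ENSMUSG00000009545; 143106362 to 143427042, plus strand), the gene of a voltage-gated potassium channel in whose body Kcnq1ot1 lies, was close to the floor. It had 2 counts in replicate 1, or 0.0575 CPM (0.00696 to 0.208), and 9 in replicate 2, or 0.302 CPM (0.138 to 0.574). The log2 ratio of 2.15 (0.12 to 5.64) rests on these few counts, and it became 1.22 with a pseudocount of 5 counts in place of 0.5. Kcnq1 was thus at or near the limit of detection.

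At the Ascl2 end of the domain, Ascl2 was lower in replicate 2 and Tspan32 was nearly level. Ascl2 (ENSMUSG00000009248; 142966829 to 142969264, minus strand), a transcription factor gene needed for the placental trophoblast, had 170 counts in replicate 1, or 4.89 CPM (4.18 to 5.68), and 98 in replicate 2, or 3.29 CPM (2.67 to 4.01). Its log2 ratio was -0.57 (-0.95 to -0.21), or 1.48-fold lower in replicate 2. Tspan32 (ENSMUSG00000000244; 143005046 to 143019644, plus strand), a tetraspanin gene of blood cells, had 128 counts in replicate 1 and 116 in replicate 2. These are 3.68 CPM (3.07 to 4.37) and 3.89 CPM (3.22 to 4.67), and the log2 ratio of 0.08 (-0.30 to 0.45) has an interval that includes 0.

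Cd81 and Tssc4 on one side of Kcnq1ot1 and Nap1l4 on the other, all broadly expressed genes, were nearly level. Cd81 (ENSMUSG00000037706; 143052739 to 143067934, plus strand), a tetraspanin of the cell surface, had 5902 and 5287 counts in replicates 1 and 2, or 170 CPM (165 to 174) and 177 CPM (173 to 182), a log2 ratio of 0.06 (0.01 to 0.12). Tssc4 (ENSMUSG00000045752; 143069249 to 143071093, plus strand), which takes part in assembly of the U5 splicing particle, had 722 and 646 counts, or 20.7 CPM (19.3 to 22.3) and 21.7 CPM (20.0 to 23.4), a log2 ratio of 0.06 (-0.09 to 0.22). Nap1l4 (ENSMUSG00000059119; 143513579 to 143549106, minus strand), a histone chaperone gene next to Phlda2, had 4605 and 4474 counts, or 132 CPM (129 to 136) and 150.2 CPM (146 to 155). Its log2 ratio was 0.18 (0.12 to 0.24), so Nap1l4 was slightly higher in replicate 2 and far nearer to level than Phlda2. Opposite-strand exons of Trpm5 cover 11.9% of Tssc4.

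Set against all genes, 3 of the 10 lay past 1.5-fold in either direction, where 14.7% of 19078 genes with at least 10 counts did. All 3, Kcnq1, Cdkn1c and Phlda2, were higher in replicate 2 (background 5.52%), and none was lower (background 9.22%). Among genes with at least 100 counts, 2 of 9 domain genes were past 1.5-fold, both higher in replicate 2, against a background of 4.69% in either direction and 1.14% higher. The members were chosen on this contrast, so nothing is read from these counts. The limit of 1.5-fold is 0.58 on the log2 scale; Slc22a18 (0.58, or 1.49-fold) and Ascl2 (-0.57, or 1.48-fold) lay just inside it, and Phlda2 (1.07) was the nearest beyond it. Of the 10 ratios 8 were above 0 and 2 below. Their median was 0.13 and their median size without sign 0.50, where all tested genes had -0.01 and 0.16. Genes with at least 100 counts had a median size of 0.116. The genes chosen on this contrast enter the medians of the domain, so nothing is read from these either.

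**Figure D2:**
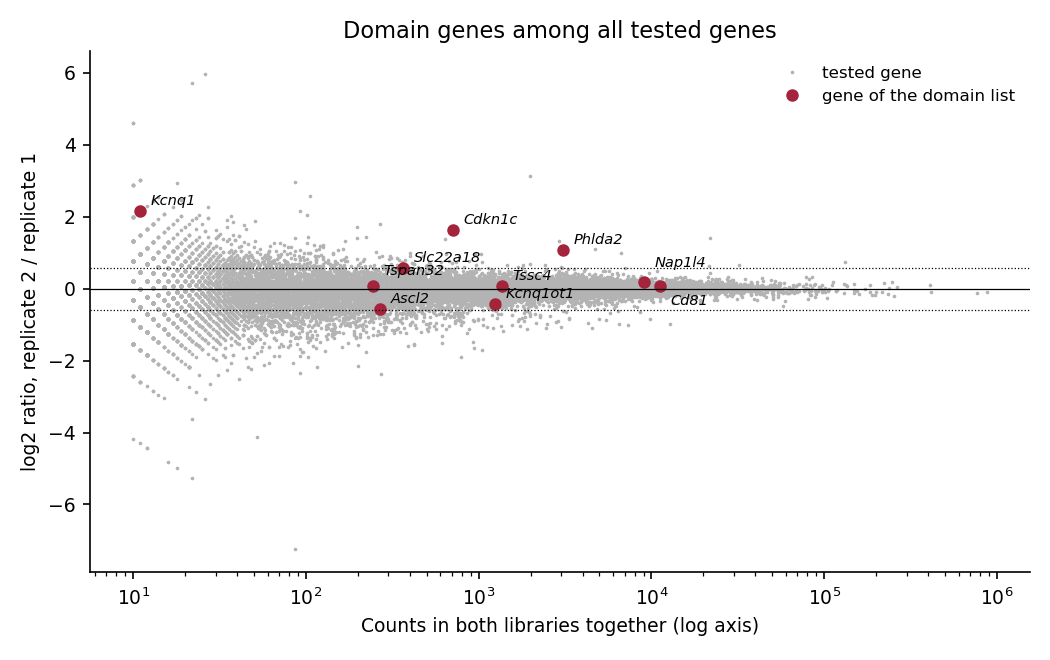
Log2 ratio of replicate 2 over replicate 1 against counts in both libraries together (log axis) for the 19078 genes with at least 10 counts (grey) and the 10 domain genes (red); dotted lines mark 1.5-fold. Cdkn1c (1.63) and Phlda2 (1.07), chosen because they were higher in replicate 2, lie above the upper line, and Kcnq1 lies above it at 11 counts.

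Ratios of genes within a library do not depend on its total. The ratios and shares below use the values by which the genes were chosen. A shift of Cdkn1c or Phlda2 against Kcnq1ot1 was thus fixed in advance, and nothing is read from it. Cdkn1c had 0.254 counts per count of Kcnq1ot1 in replicate 1 (95% interval 0.216 to 0.298) and 1.07 in replicate 2 (0.944 to 1.22). For Phlda2 over Kcnq1ot1 these count ratios were 1.45 (1.32 to 1.59) and 4.14 (3.74 to 4.58). Phlda2 over its neighbour Nap1l4 gave 0.239 (0.223 to 0.255) and 0.444 (0.421 to 0.468). Cdkn1c over Phlda2 was 0.175 (0.150 to 0.205) and 0.259 (0.234 to 0.285), intervals that did not overlap. Of all counts in the 10 genes, Cdkn1c took 1.40% of those of replicate 1 (95% Clopper-Pearson bounds 1.21 and 1.62%) and 3.72% of those of replicate 2 (3.41 to 4.05%). Phlda2 took 8.0% (7.56 to 8.47%) and 14.4% (13.8 to 15.0%), and Kcnq1ot1 took 5.52% (5.15 to 5.92%) and 3.47% (3.17 to 3.79%). Cd81 and Nap1l4 held most of the rest, 42.9 and 33.5% in replicate 1 and 38.3 and 32.4% in replicate 2.

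The neighbours of the domain were read from position alone. Between H19 and Nadsyn1 (chromosome 7, 142575529 to 143822849) lay 43 other annotated genes, of which 18 had no count in either library and 14 had at least 10 counts. Of these 14, 2 were past 1.5-fold, against the background of 14.7%, and the median log2 ratio was -0.08. Both belong to the adjoining imprinted pair at the far end from Nap1l4. Igf2, a fetal growth factor gene, had 67 counts (1.93 CPM) in replicate 1 and 156 (5.24 CPM) in replicate 2, a log2 ratio of 1.44 (1.02 to 1.88). H19, a noncoding RNA expressed from the opposite parental chromosome, had 61 counts (1.75 CPM) and 27 (0.906 CPM), a log2 ratio of -0.94 (-1.66 to -0.28). H19 was at few counts, 88 in both libraries together, against 223 for Igf2. That pair is under a control region of its own.

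Beyond Nap1l4 no neighbour with at least 10 counts was past 1.5-fold. Cars, a cysteinyl-tRNA synthetase gene, had 6919 and 5682 counts and a log2 ratio of -0.06 (-0.11 to -0.01). Tnfrsf22, a decoy receptor gene, had 715 and 683 counts and a ratio of 0.16 (0.00 to 0.31). Osbpl5 (-0.11, interval -0.53 to 0.29) and Nadsyn1 (-0.21, interval -0.51 to 0.08) had intervals that include 0. So did Tnfrsf23, with 22 and 13 counts and a ratio of -0.51 (-1.65 to 0.52), and Mir7064, with 15 and 12 counts and a ratio of -0.09. On the other side of Kcnq1ot1, Trpm5 had 14 counts in each library and Mir675, within H19, had 5 in each. There Tspan32os, antisense to Tspan32, had 74 and 43 counts, a ratio of -0.55 (-1.14 to 0.00). Mrpl23 (0.12) and Dhcr7 (-0.18), just outside the window, were also inside 1.5-fold.

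**Figure D3:**
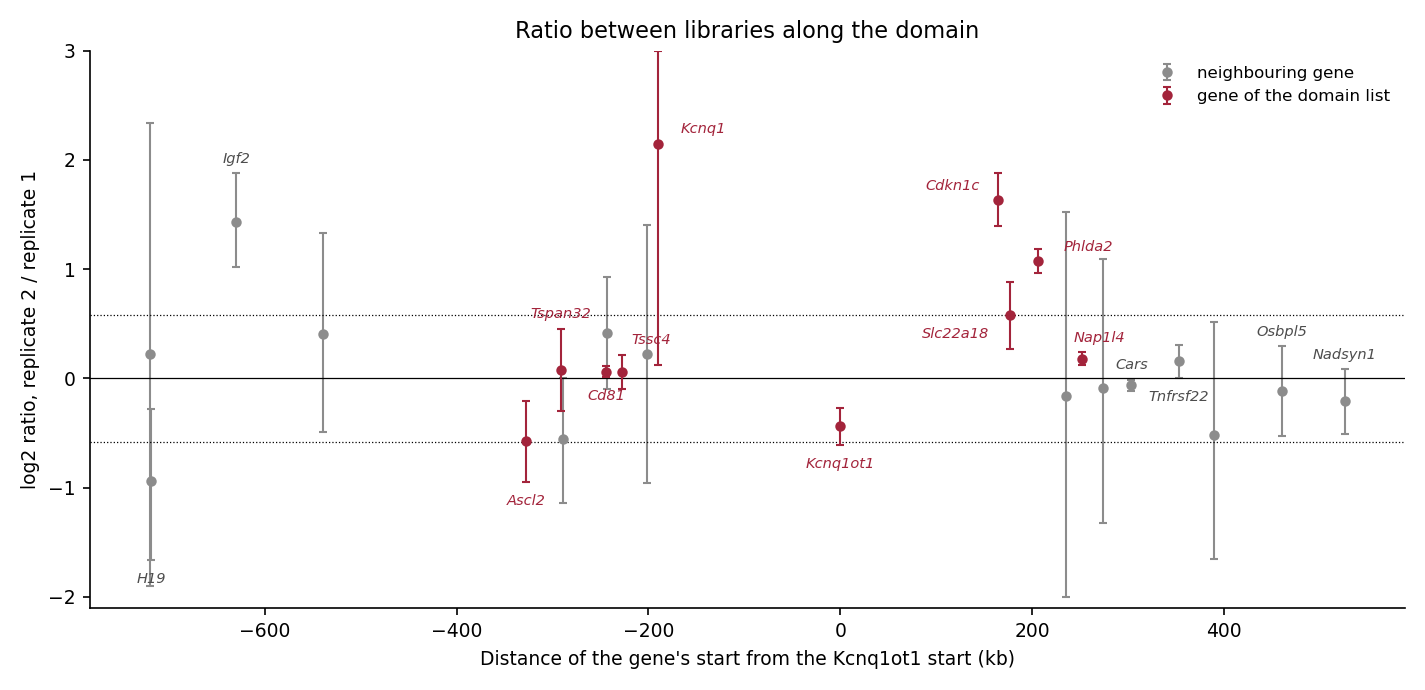
Log2 ratio of replicate 2 over replicate 1 (95% Clopper-Pearson intervals for counting error) by distance of each gene's start from the Kcnq1ot1 start in kb, for the 10 domain genes (red) and the 14 neighbours with at least 10 counts (grey); dotted lines mark 1.5-fold and the interval of Kcnq1 is clipped at the top. Cdkn1c (1.63), Slc22a18 (0.58) and Phlda2 (1.07) lie next to each other above 0 and Kcnq1ot1 (-0.44) below it. Cdkn1c, Phlda2 and Kcnq1ot1 were chosen for these directions. Nap1l4 (0.18), Cars (-0.06) and Tnfrsf22 (0.16) lie nearer to 0, and Tnfrsf23 (-0.51) has a wide interval. At the other end, the neighbour Igf2 (1.44) lies above the upper line and H19 (-0.94) below the lower one.

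Cdkn1c was the minor member of the Cip/Kip inhibitors, the proteins that bind and block cyclin-dependent kinases. In TPM, Cdkn1a stood at 94.9 in replicate 1 and 84.2 in replicate 2, Cdkn1b at 25.3 and 25.7, and Cdkn1c at 7.52 and 23.3. Cdkn1c thus lay far below Cdkn1b in replicate 1 and close to it in replicate 2. Its share of the counts of these 3 genes went from 3.28% in replicate 1 (Clopper-Pearson bounds 2.84 and 3.77%) to 10.2% in replicate 2 (9.41 and 11.1%). None of the 13 listed cyclins, kinases and Pcna, to which such inhibitors bind, was past 1.5-fold, against the background of 14.7%, and their median log2 ratio was 0.01. Of the 13, 12 had at least 100 counts, and among all genes with that many the background was 4.69%. Pcna (423 ± 0.394 TPM), Cdk4 (328 ± 6.74 TPM) and Ccnb1 (203 ± 7.07 TPM) had the highest means, and Ccnb1 did not differ from Ccne1 (201 ± 10.9 TPM) beyond their spread.

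Of 34 listed paralogues and partners of the domain proteins, 33 were found and 20 had at least 10 counts. Of these 20, 2 were higher in replicate 2 past 1.5-fold, against a background of 5.52%. They were Phlda1 (179 and 245 counts, log2 ratio 0.67) and Kcnq3 (9 and 17 counts, 1.10). The median was -0.07. Phlda3, the other relative of Phlda2, had a log2 ratio of 0.31 and 48.6 ± 7.23 TPM. The histone chaperone gene Nap1l1 (400 ± 8.12 TPM) exceeded Nap1l4, and the tetraspanin gene Cd9 (219 ± 3.54 TPM) exceeded Cd81. Cdkn1a (89.5 ± 7.57 TPM) was the third highest of this list. The accessory subunit genes of the Kcnq1 channel were hardly detected, with no count for Kcne2 and Kcne4, 4 and 2 counts for Kcne1, and 1 and 0 for Kcne3.

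The regulators that keep imprints or act with Kcnq1ot1 all had at least 100 counts. None of the 22 was past 1.5-fold, where 4.69% of genes with at least 100 counts were, and their median log2 ratio was 0.08. Suz12, a Polycomb subunit gene singled out after its value was seen, was lower in replicate 2, with 11638 and 7560 counts and a log2 ratio of -0.40 (-0.44 to -0.36), or -0.48 with the GC trend removed. Ring1 was the lowest in level, at 5.43 ± 0.0187 TPM. Trim28, the co-repressor recruited by ZFP57, was the highest (947 ± 30.5 TPM), followed by Hnrnpk (434 ± 21.9 TPM), whose product links noncoding RNAs to Polycomb proteins, and Uhrf1 (373 ± 2.93 TPM), the partner of the maintenance methyltransferase.

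Imprinted genes of other domains with a noncoding RNA gave 1 of 22 tested past 1.5-fold, against the background of 14.7%, with a median log2 ratio of -0.01. That gene was Usp29, with 61 and 34 counts and a ratio of -0.61, named after its value was seen. Of the 22, 18 had at least 100 counts and none of these was past 1.5-fold. Among all genes with at least 100 counts, 4.69% were. Peg10 (137 ± 20.8 TPM), Grb10 (84.7 ± 0.476 TPM) and Snrpn (62.6 ± 2.69 TPM) were the highest. Airn, the noncoding RNA of the Igf2r domain, which is built like the Kcnq1ot1 domain, had only 2 and 3 counts. Igf2r itself, also named after its value was seen, had 3809 and 2263 counts. Its log2 ratio was -0.53 (-0.60 to -0.45), inside 1.5-fold but lower in replicate 2.

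Defining markers matched the labelled cell type. The 10 listed embryonic stem cell genes were led in TPM by Dppa5a, Pou5f1 and Tdgf1. They summed to 8127 CPM in replicate 1 and 7844 CPM in replicate 2. None was past 1.5-fold, where 4.69% of genes with at least 100 counts were. Because several domain genes act in the placenta, trophoblast genes were read beside them. The 11 summed to 57.0 and 66.0 CPM, of which Tfap2c, a gene that germ cells and embryonic stem cells also express, had 46.1 ± 8.30 CPM, Krt7 8.61 ± 0.873 CPM and Eomes 5.05 ± 0.541 CPM. Tpbpa and Prl3d1 had no count, Cdx2 had 5 and 6 counts, and 3 of 8 tested were past 1.5-fold lower in replicate 2 (background 9.22%), Gata3, Gcm1 and Elf5, each at 20 counts or fewer per library. The other summed levels in replicates 1 and 2 were 7.76 and 5.77 CPM for 8 genes of extraembryonic endoderm, 5.06 and 7.75 CPM for 6 of mesoderm, 49.0 and 49.9 CPM for 6 of neuroectoderm and 26.8 and 26.2 CPM for 7 of fibroblasts. Tubb3 made up 45.4 and 45.9 CPM of the neuroectoderm sums, and Thy1 24.7 and 23.1 CPM of the fibroblast sums. Afp, Ttr, Dcx, Olig2, Col3a1, Lum and Postn were at 0. Of 6 tested endoderm genes, 2 were past 1.5-fold lower (Gata6 and Dab2 at few counts; background 9.22%), and of 3 tested mesoderm genes 2 were higher (Kdr and Mesp1; background 5.52%). The part of such cells in the differences of the domain genes was not tested.

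Removing the trend of the ratio with GC content or with length left every domain gene on the same side of 0. With the GC trend removed, Cdkn1c stood at 1.72, Phlda2 at 1.17, Slc22a18 at 0.67, Ascl2 at -0.50 and Kcnq1ot1 at -0.52. Slc22a18 then lay past 1.5-fold, as it did with the length trend removed (0.59).

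**Figure D4:**
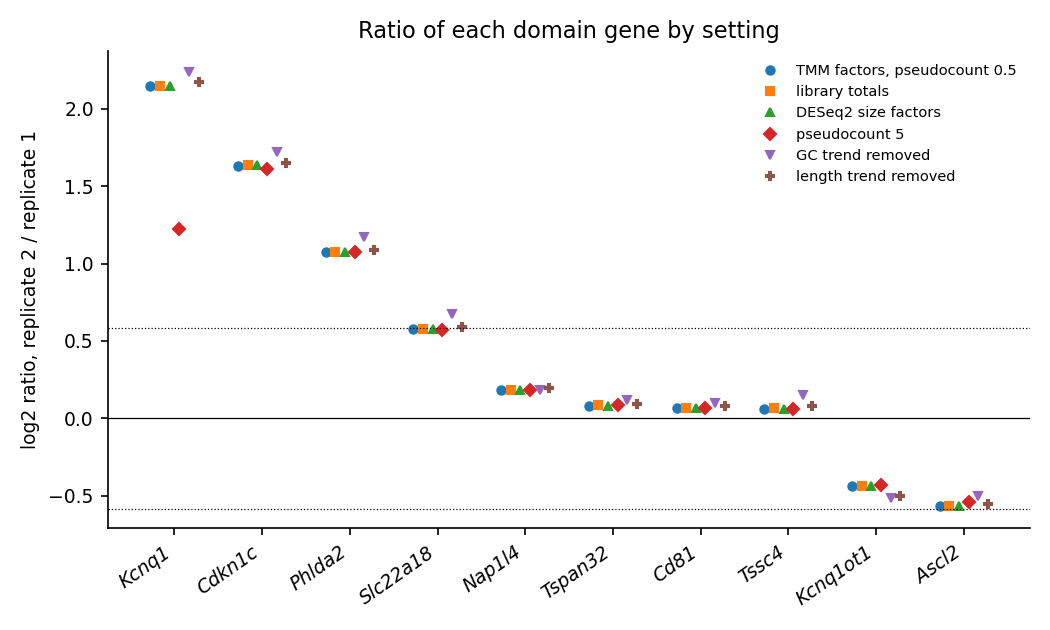
Log2 ratio of replicate 2 over replicate 1 of each domain gene under 6 settings of scaling, pseudocount and trend removal; dotted lines mark 1.5-fold. The points of a gene lie close together except for Kcnq1, which falls from 2.15 to 1.22 with a pseudocount of 5 counts, and Slc22a18 sits on the upper line.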

How the data were processed

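Libraries of polyA RNA took 1 ug of total RNA and a reverse-stranded TruSeq protocol, per the labels' protocols. STAR 2.4.2a and mm10 (GRCm38) were used, per the submitters' processing notes; what tool counted the reads, with which strand setting and annotation, is not given in the sources used here. The authors deposited raw counts per Ensembl gene, 1 file per library. GENCODE M21 named 47224 of 47643 identifiers and gave positions and exon lengths.

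CPM used library totals and TPM exon lengths. Log2 ratios used a pseudocount of 0.5 and edgeR 4.0.16 TMM factors; alternatives used DESeq2 1.42.0 size factors, totals, a pseudocount of 5, and lowess trends (fraction 0.3) on GC content or exon length. Ratios cover genes with at least 10 counts. Intervals are 95% exact Poisson (CPM) or Clopper-Pearson (ratios, shares). No test was run: there is 1 group, and the members were chosen on the contrast of its libraries. Members and lists were chosen with earlier results of these data known. Named were all members, neighbours with at least 10 counts and a symbol that is no clone or model name, the 3 highest genes by TPM of each gene list other than the lineage markers, those past 1.5-fold with at least 100 counts, Ago1 and Ago2; other genes were named after their values were seen. The values of 1 listed gene are not reported here. The scripts were tested on simulated data.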

Additional observations from a re-analysis of the deposited data

How the results depend on the processing

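All 50 alternative log2 ratios of the 10 domain genes, over 5 alternatives each (library totals, DESeq2 size factors, a pseudocount of 5, GC trend or length trend removed), stayed inside the counting interval of the value reported, and none changed sign. Library totals and DESeq2 size factors each move every gene by the same very small amount, so these alternatives could hardly have left an interval. The count of domain genes past 1.5-fold was 3, and 2 to 4 over the alternatives. Counts of other genes moved with the count minimum and the fold. In the main setting, 2 of 14 neighbours, 4 of 77 listed genes and 2812 of all 19078 genes were past 1.5-fold. With at least 100 counts these were 1 of 7, 1 of 67 and 635 of 13553. With no minimum they were 11 of 25, 11 of 86 and 8194 of 26401. Among the genes tested in the main setting, 1, 2 and 1073 were past 2-fold, in the same order. A pseudocount of 5 gave 2, 3 and 1955 past 1.5-fold. For neighbours and listed genes, most of these settings were chosen after seeing the data. Leaving out a library left 9 domain genes at 1 CPM. No paired analysis was possible because the series has 1 group. Depth limits Kcnq1, with 11 counts in all. In the order of levels, CPM in place of TPM moved Kcnq1ot1 from place 9 to 5.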
